A study of Mus musculus with 8 samples.

Results

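The genes that build the moving axoneme of cilia were followed in cells sorted from Eml4-Alk mouse lungs. The set held every gene whose symbol begins with Cfap, Tekt, Rsph or Drc followed by a number, together with Spag6, Spag6l, Spag16, Spag17, Hydin, Spef1, Spef2, Ropn1l and Tppp3. In all, 58 of the 27179 genes of the count table were members. Membership was set by gene symbol. The axoneme genes lie on 18 chromosomes.

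RNA was measured by bulk RNA-seq in 4 QZ1-hi and 4 QZ1-lo libraries. All libraries came from lungs of Eml4-Alk mice, labelled as strain C57BL/6 (C57BL/6J in the study's methods) with an Eml4-Alk translocation. In this model an adenovirus with Cas9 and guide RNAs, given through the trachea, joins the Eml4 and Alk genes in cells of the lung, and tumors that resemble lung adenocarcinoma follow. Both groups share this model and the probe. The mice were 18 to 22 weeks of age and 11 to 12 weeks past tumor induction, and received 4.5 nmol of QZ1, an intravenous probe whose fluorescence appears once a protease cuts its linker, 2 h before the lungs were taken. QZ1-hi cells carried a strong probe signal and QZ1-lo cells a weak one, among live cells negative for the leukocyte markers CD45 and CD11b, with at least 100000 cells per population. The labels do not give the share of tumor and other tissue in a library, no library came from a mouse without tumors, and the purity of the sorted fractions was not measured. The labels do not say which libraries share a mouse, so p-values measure the spread between these libraries.

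Motile cilia are hair-like organelles that beat to move fluid, and in the lung they stand on the ciliated cells of the airways, where they clear mucus. Their core, the axoneme, is a ring of doublet microtubules around a central pair of single microtubules. Dynein motors on the doublets slide them against each other. Radial spokes reach from the doublets to the central pair, the nexin-dynein regulatory complex links neighbouring doublets, and microtubule inner proteins and tektins stabilise the doublets from inside. Sperm flagella share much of this machinery, and a few of the genes also serve non-motile primary cilia or have roles outside cilia. In ciliated cells the transcription factor Foxj1, a forkhead protein, and the RFX factors switch on many axoneme genes.

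Promoters of the axoneme genes were read to show the sequences through which such factors are known to act. RefSeq promoters of build GRCm38.p6 were matched to 48 of the 58 genes (55 promoters). Each runs from 250 bases before to 50 bases after a start used for the gene. That start is not always the outermost end of the gene, so a promoter can lie inside the gene. An X-box, taken here as GTNNCC followed after 0 to 2 bases by GGNAAC on either strand, was found in 7 of the 55 promoters (12.7%) and in 687 of 32851 promoters of all genes (2.09%). The forkhead core TGTTTAC, searched on both strands, was found in 3 of the 55 (5.45%) and in 1199 of all promoters (3.65%). No promoter of an axoneme gene held both motifs. The following windows of 80 bases run 5′ to 3′ on the strand of the gene, with the motif in capitals. They are shown because they hold a motif, the first 3 an X-box in genes that were lower in QZ1-hi cells, the fourth a forkhead core in such a gene, and the last 2 an X-box in genes that did not pass the test.
Cfap206, chr4:34730183-34730262, minus strand: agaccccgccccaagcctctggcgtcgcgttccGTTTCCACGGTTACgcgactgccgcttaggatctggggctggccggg
Tekt4, chr17:25471397-25471476, plus strand: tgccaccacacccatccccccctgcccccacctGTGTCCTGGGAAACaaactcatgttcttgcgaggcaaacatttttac
Cfap58, chr19:47937619-47937698, plus strand: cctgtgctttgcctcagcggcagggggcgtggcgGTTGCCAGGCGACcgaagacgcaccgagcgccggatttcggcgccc
Cfap43, chr19:47837374-47837453, minus strand: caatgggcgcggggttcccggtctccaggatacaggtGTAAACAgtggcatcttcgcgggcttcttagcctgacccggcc
Ropn1l, chr15:31453664-31453743, minus strand: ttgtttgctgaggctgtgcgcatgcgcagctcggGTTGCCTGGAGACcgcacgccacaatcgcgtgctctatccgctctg
Cfap20dc, chr14:8666346-8666425, minus strand: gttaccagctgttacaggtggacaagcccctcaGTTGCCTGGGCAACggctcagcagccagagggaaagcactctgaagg
The windows of Cfap206, Tekt4 and Cfap43 lie inside the RefSeq spans of their genes. These spans are chr4:34688574-34730263, chr17:25454549-25476602 and chr19:47736857-47837454. The motif of Cfap206 begins 23 bases before the start used for its promoter, and that of Ropn1l 20 bases before its own. The motif thus lies close to the start used in a gene that was lower in QZ1-hi cells and in a gene that did not pass the test. Among promoters of the genes called lower, 5 of 40 held an X-box (12.5%), and among those of the other members 2 of 15 did (13.3%). The remaining X-boxes were in Spag6l and Cfap298 and the remaining forkhead cores in Cfap20 and Tekt3. A match is a description of the letters and not a measured binding site.

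Levels are given as CPM, the reads of a gene scaled to a common library size, after TMM scaling, a method of edgeR that sets libraries of unlike composition on one scale. Differences are log2 fold changes of QZ1-hi relative to QZ1-lo with their standard error (SE), from edgeR's quasi-likelihood test over the 15583 genes that passed its filter on low counts. A gene was called where the Benjamini-Hochberg adjusted p over all of these genes is below 0.05. Total counts ran from 18380918 to 26847938 per library, and 3 counts, taken as the floor, equal 0.0894 to 0.179 CPM. Mitochondrial and ribosomal RNA genes took 43.7% to 65.6% of the counts in QZ1-hi and 34.0% to 53.2% in QZ1-lo. With these genes removed from the table, the same number of axoneme genes was called. Of the 58 axoneme genes, 54 passed the filter and could be tested.

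Axoneme genes were lower in QZ1-hi cells as a group. Of the 54 tested, 42 fell and 0 rose, where 8.21% of all genes tested were called lower and 9.88% higher. The other 12 did not pass the test. At an unadjusted p below 0.05, 46 were lower and 0 higher, and the share of all genes at that threshold was not worked out. DESeq2's Wald test likewise called 42 lower and 0 higher, beside 1606 lower and 1812 higher of all 15583 genes. With limma-voom 41 were lower and 0 higher, beside 1276 lower and 1618 higher of all genes. In 41 axoneme genes every QZ1-hi library lay below every QZ1-lo library, an order seen in 10.7% of all genes tested. The median log2 fold change of the 54 was -1.95, which leaves 25.9% of the QZ1-lo level, beside a median of 0.02 over all genes tested, and 51 of the 54 values were negative. Scaling by library size only moved the median of all genes to -0.44 and the median of the axoneme genes to -2.51. Over all genes it gave 882 higher and 2509 lower calls, where TMM scaling gave 1540 higher and 1280 lower. In bulk RNA of sorted cells, fewer ciliated cells in a population and less axoneme RNA per ciliated cell cannot be told apart.

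**Figure D1:**
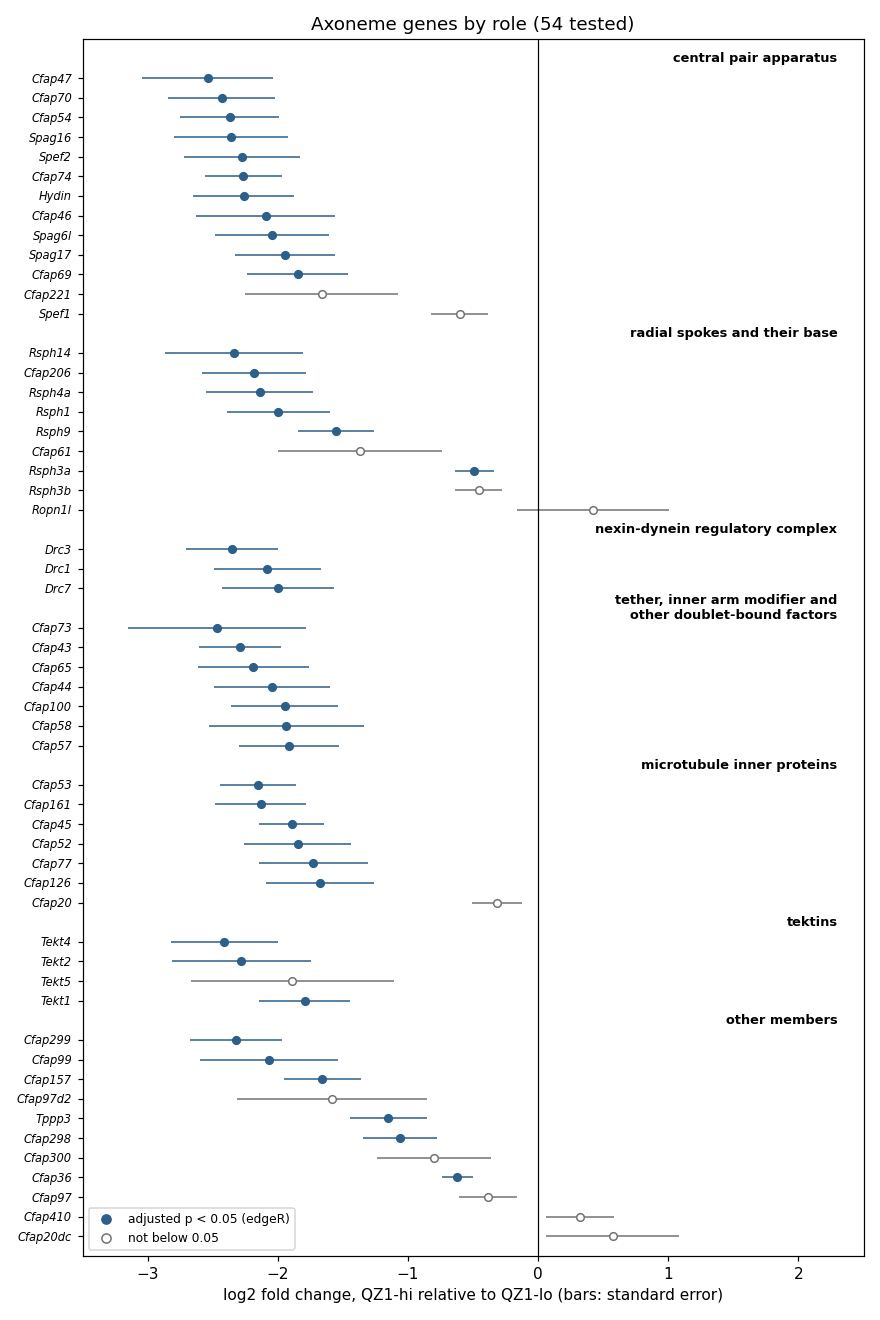
Log2 fold change of QZ1-hi relative to QZ1-lo (x axis, TMM scaling) for each of the 54 tested axoneme genes, grouped by role. Points are edgeR estimates, bars are the SE and filled points have an adjusted p below 0.05. All 42 filled points lie left of 0, and only Cfap410, Ropn1l and Cfap20dc lie right of it, of which Cfap410 and Ropn1l turn negative when libraries are scaled by size only.

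Among the central pair genes, 11 of the 13 tested fell and the other 2 did not pass the test, with a median log2 fold change of -2.26. Hydin encodes a giant protein of a projection of the central pair, and its loss stiffens cilia and causes primary ciliary dyskinesia and, in mice, hydrocephalus. The gene lies at chr8:110266968-110610253 (GRCm38.p6). Hydin was measured at 9.07, 39.7, 17.0 and 24.1 CPM in QZ1-hi replicates 1 to 4 and at 72.2, 128, 145 and 85.7 CPM in QZ1-lo replicates 1 to 4. The highest QZ1-hi library thus stayed below the lowest QZ1-lo library. The group means of 22.5 ± 13.01 and 108 ± 34.4 CPM (SD, n = 4 libraries) differ by -2.26 in log2 fold change (SE 0.39, edgeR adjusted p = 0.0022).

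Spag17 encodes a central pair scaffold protein and lies at chr3:99885417-100143322. Spag17 was at 4.24, 17.8, 9.71 and 10.9 CPM in QZ1-hi and at 23.0, 52.8, 51.7 and 37.0 CPM in QZ1-lo, again without overlap (log2 fold change -1.95, SE 0.38, edgeR adjusted p = 0.0048). In GENCODE M21, 15.7% of the exonic bases of Spag17 overlap Spag17os or Wdr3 on the opposite strand, so its counts are uncertain where strand was not used. Cfap54, a further component of a central pair projection, lies at chr10:92775609-93083487. Cfap54 was at 3.22, 11.9, 5.09 and 11.4 CPM in QZ1-hi and at 27.5, 43.8, 52.8 and 39.2 CPM in QZ1-lo (log2 fold change -2.37, SE 0.38, edgeR adjusted p = 0.0015). The lowest QZ1-lo library was far above the highest QZ1-hi library for this gene.
Cfap74, a partner of Cfap54 in that projection, was at 3.14, 6.22, 3.06 and 5.48 CPM in QZ1-hi and at 14.2, 19.5, 26.4 and 25.9 CPM in QZ1-lo. Its groups did not overlap, and the log2 fold change was -2.26 (SE 0.29, edgeR adjusted p = 5.5e-04).
The largest fall of all members, -2.54 (SE 0.50, edgeR adjusted p = 0.0048), was that of Cfap47, also a central pair gene, at 0.297 to 1.503 CPM in QZ1-hi and 3.36 to 6.95 CPM in QZ1-lo. Cfap70 (-2.43), Spag16 (-2.36), Spef2 (-2.28), Cfap46 (-2.09), Spag6l (-2.05) and Cfap69 (-1.85) fell with it. Spag16 and Spag6l encode proteins on which the stability of the central pair rests.
The 2 central pair genes that did not pass the test differed from each other. Cfap221 had a log2 fold change of -1.66 with an SE of 0.59, at 0.297 to 2.86 CPM in QZ1-hi, and its groups did not overlap. Spef1, whose product bundles microtubules and is also found in the cortex of epithelial cells, had the small value of -0.60 with an SE of 0.22 (edgeR adjusted p = 0.086). Spag6, the paralog of Spag6l, was not tested because only 2 reads were counted, both in QZ1-lo replicate 1.

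Of the 9 tested genes of the radial spokes and their base, 6 fell and 3 did not pass the test (median log2 fold change -1.55). The heads of the spokes, which touch the central pair, contain the products of Rsph1, Rsph4a and Rsph9, and mutations in these genes cause primary ciliary dyskinesia. Rsph4a lies at chr10:33905111-33916021. Rsph4a was at 3.73, 17.8, 11.2 and 9.65 CPM in QZ1-hi and at 26.95, 54.5, 68.2 and 37.1 CPM in QZ1-lo, with no overlap. Its log2 fold change was -2.14 (SE 0.41, edgeR adjusted p = 0.0043). Rsph1 (-1.996) and Rsph9 (-1.55) fell as well. Rsph14 (-2.34) and Cfap206 (-2.19), which encodes a protein at the spoke base, were the largest falls of this group.
The stalk gene Rsph3 exists in the mouse as a pair of near copies on chromosome 17. Rsph3a was at 13.9, 15.4, 15.1 and 13.4 CPM in QZ1-hi and at 18.9, 21.6, 23.2 and 17.4 CPM in QZ1-lo, and it fell by 0.49 on the log2 scale (SE 0.15, edgeR adjusted p = 0.042). Rsph3b, at 12.1 to 15.8 CPM in QZ1-hi and 15.6 to 22.7 CPM in QZ1-lo, had a value of -0.46 (edgeR adjusted p = 0.11). Of the exonic stretches of 50 bases, 58.1% of those of Rsph3a and 69.2% of those of Rsph3b occur in another gene, so the counts of this pair are uncertain. The call for Rsph3a was lost in 9 of 15 alternative settings. Ropn1l, whose product sits in the spoke stalk and in sperm, was at 1.07 to 1.91 CPM in QZ1-hi and 0.573 to 2.10 CPM in QZ1-lo. This amounted to a log2 fold change of 0.42 with an SE of 0.58, and -0.0440 when libraries were scaled by size only. Cfap61, of the spoke base, had a value of -1.37 that did not pass the test (edgeR adjusted p = 0.18). Rsph6a, a spoke head gene known from sperm, had 0 reads in every library.

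**Figure D2:**
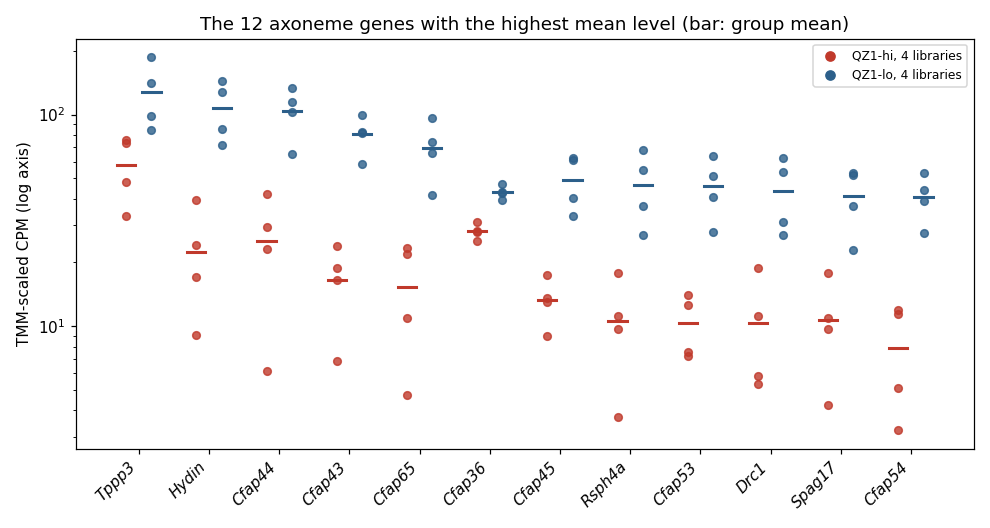
TMM-scaled CPM (y axis, log scale) of the 12 axoneme genes with the highest mean level, with 1 point per library and a bar at the group mean. The groups overlap in none of these 12 genes, and Cfap36, at 25.2 to 31.1 CPM in QZ1-hi and 39.7 to 47.0 CPM in QZ1-lo, shows the narrowest gap of group means.

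The 3 members named Drc, which encode subunits of the nexin-dynein regulatory complex, all fell. Drc1, whose product forms the base of this link between doublets, lies at chr5:30281335-30366695. Drc1 was at 5.30, 18.9, 5.78 and 11.2 CPM in QZ1-hi and at 27.01, 53.4, 62.6 and 31.1 CPM in QZ1-lo. Drc1 had a log2 fold change of -2.08 (SE 0.41, edgeR adjusted p = 0.0048). Drc3 was at 3.47, 12.7, 6.19 and 6.79 CPM in QZ1-hi and at 25.1, 39.4, 50.2 and 34.3 CPM in QZ1-lo. The groups were clearly apart in both genes, and the log2 fold change of Drc3 was -2.35 (SE 0.35, edgeR adjusted p = 0.0010). Drc7 fell by 1.998 on the log2 scale (edgeR adjusted p = 0.0075).

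All 7 genes listed as tether, modifier of the inner dynein arms or other axonemal factors fell, with a median log2 fold change of -2.05. Cfap43 and Cfap44 encode the tether that holds the head of an inner dynein arm to its doublet, and they lie at chr19:47736857-47837454 and chr16:44394742-44482694. Cfap43, whose promoter window with a forkhead core is printed above, was at 6.86, 18.8, 16.5 and 23.9 CPM in QZ1-hi and at 58.4, 82.4, 99.7 and 81.9 CPM in QZ1-lo. The log2 fold change of Cfap43 was -2.29 (SE 0.32, edgeR adjusted p = 7.1e-04). Cfap44 was at 6.14, 42.1, 23.2 and 29.4 CPM in QZ1-hi and at 64.8, 114, 134 and 103 CPM in QZ1-lo (log2 fold change -2.05, SE 0.44, edgeR adjusted p = 0.0080). The partners of the tether fell to 20.5% and 24.2% of the QZ1-lo level, near the median of 25.9% over all 54 tested members.
Cfap65, known for its part in sperm flagella, lies at chr1:74902071-74935626. Cfap65 was at 4.75, 23.4, 10.9 and 22.0 CPM in QZ1-hi and at 41.5, 74.1, 96.0 and 66.1 CPM in QZ1-lo (log2 fold change -2.19, SE 0.43, edgeR adjusted p = 0.0046). Cfap73 (-2.46) and Cfap100 (-1.95), the complex that modifies inner arms, Cfap58 (-1.94) and Cfap57 (-1.91) made up the rest. Cfap58 was at 0.593 CPM in QZ1-hi replicate 1 and at 5.78 to 12.7 CPM in the other QZ1-hi libraries, and its call (edgeR adjusted p = 0.044) was lost in 6 of 15 alternative settings.

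Inside the doublets, 6 of the 7 listed microtubule inner proteins fell (median log2 fold change -1.85). Cfap53, needed for cilia that beat and for left-right placement of organs, was at 7.25, 14.0, 7.57 and 12.6 CPM in QZ1-hi and at 27.9, 51.3, 63.9 and 40.8 CPM in QZ1-lo. It fell by 2.15 on the log2 scale (SE 0.29, edgeR adjusted p = 6.3e-04). Cfap45, at chr1:172521130-172545870, was at 8.98, 17.4, 12.95 and 13.6 CPM in QZ1-hi and at 33.3, 60.8, 62.3 and 40.2 CPM in QZ1-lo (log2 fold change -1.89, SE 0.25, edgeR adjusted p = 5.7e-04). Both genes kept a wide gap between the groups.
Cfap161 was at 1.19, 3.01, 2.25 and 2.20 CPM in QZ1-hi and at 5.28, 11.8, 10.3 and 10.6 CPM in QZ1-lo (log2 fold change -2.13, SE 0.35, edgeR adjusted p = 0.0017). Cfap52 (-1.85), Cfap77 (-1.73) and Cfap126 (-1.68), also called Flattop, fell as well. Tektins form filaments along the inner wall of the doublets, and 3 of the 4 tested fell: Tekt4 (-2.41), Tekt2 (-2.28) and Tekt1 (-1.80). The groups of Tekt2 overlapped, at 0.543 to 1.25 CPM in QZ1-hi and 1.22 to 6.19 CPM in QZ1-lo. Its call was lost with limma-voom (adjusted p = 0.146). Of the exonic bases of Tekt2, 20.8% overlap Gm12945 on the opposite strand, so its counts are uncertain where strand was not used. Tekt5 had a value of -1.89 with an SE of 0.78 and did not pass the test. Tekt3 had 11 reads in all QZ1-hi libraries together and 97 in all QZ1-lo libraries together, and was not tested.

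Among the 12 remaining members, 11 were tested and 6 fell. Cfap299, among the genes with the smallest p, was at 1.10, 1.23, 1.10 and 2.62 CPM in QZ1-hi and at 6.23, 7.04, 9.88 and 7.04 CPM in QZ1-lo, without overlap. Its log2 fold change was -2.32 (SE 0.35, edgeR adjusted p = 0.0012), and 19.1% of its exonic bases overlap another gene on the same strand. Cfap99 (-2.07) and Cfap157 (-1.66), known as a Foxj1 target, also fell. Cfap97d2 (-1.59) and Cfap300 (-0.80), which helps to assemble dynein arms, did not pass the test. Cfap20dc was at 2.08 to 3.35 CPM in QZ1-hi and 0.532 to 3.25 CPM in QZ1-lo, and its positive value of 0.57 had an SE of 0.51. Cfap97d1 had 0 reads in every library.

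Members known from many cell types besides ciliated cells are described apart. There were 6 of them, and 3 fell (Tppp3, Cfap298 and Cfap36) while 3 did not pass the test, with a median log2 fold change of -0.50. The other 48 tested members had a median of -2.02, and 39 of them fell. Tppp3, at chr8:105467492-105471422, encodes a protein that promotes tubulin polymerisation and marks ciliated cells but also tendon and other mesenchymal cells. Tppp3 was at 33.3, 73.5, 75.9 and 47.8 CPM in QZ1-hi and at 84.6, 142, 186 and 98.6 CPM in QZ1-lo. The groups lay close to each other without overlapping, at 57.6 ± 20.6 and 128 ± 45.9 CPM (SD, n = 4 each), with a log2 fold change of -1.15 (SE 0.30, edgeR adjusted p = 0.020). Leaving out QZ1-hi replicate 4, QZ1-lo replicate 2 or QZ1-lo replicate 3 raised that adjusted p to 0.058, 0.051 and 0.052.
Cfap36, at chr11:29218918-29247317, binds a small GTPase of microtubule biology. It was at 25.2, 31.1, 27.8 and 28.2 CPM in QZ1-hi and at 39.7, 43.3, 47.0 and 42.8 CPM in QZ1-lo. Its libraries were tight within each group, so the small log2 fold change of -0.62 (SE 0.12) had an adjusted p of 0.0039 in edgeR.
Cfap298, which acts in the cytoplasmic assembly of dynein arms, was at 10.9, 22.5, 17.1 and 10.5 CPM in QZ1-hi and at 21.7, 34.1, 44.7 and 26.9 CPM in QZ1-lo. QZ1-hi replicate 2 lay above QZ1-lo replicate 1, and the log2 fold change was -1.06 (SE 0.28, edgeR adjusted p = 0.023). Of its exonic bases, 53.6% overlap genes on the opposite strand, so its counts are uncertain where strand was not used. Its call was lost when QZ1-hi replicate 1, QZ1-hi replicate 4, QZ1-lo replicate 2 or QZ1-lo replicate 3 was left out (adjusted p 0.057 to 0.064).
Cfap20, a doublet inner junction protein that also serves primary cilia, was at 23.2, 18.1, 20.4 and 12.6 CPM in QZ1-hi and at 20.6, 23.8, 26.8 and 21.6 CPM in QZ1-lo (log2 fold change -0.32, SE 0.19). Cfap97 was at 11.9, 9.88, 6.01 and 10.1 CPM in QZ1-hi and at 12.5, 13.5, 13.4 and 10.1 CPM in QZ1-lo (log2 fold change -0.38, SE 0.22). Cfap410, known from primary cilia and photoreceptors, was at 8.05, 4.35, 6.24 and 5.36 CPM in QZ1-hi and at 4.14, 4.68, 5.86 and 4.54 CPM in QZ1-lo (log2 fold change 0.32, SE 0.26, and -0.0904 when scaled by library size only). The groups overlapped in these 3 genes and none passed the test.

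Foxj1, the switch for motile cilia, served as a yardstick. Foxj1 was at 13.4, 35.8, 22.8 and 20.7 CPM in QZ1-hi and at 68.7, 114, 131 and 75.5 CPM in QZ1-lo. The groups did not overlap, and its log2 fold change of -2.07 (SE 0.30, edgeR adjusted p = 8.5e-04) was close to the median of the axoneme genes. Within each library, the level of the 6 members known from many cell types was divided by that of Foxj1. All 6 log2 ratios were higher in QZ1-hi, with no overlap between groups. The differences of the mean log2 ratios were 2.40 for Cfap410, 1.76 for Cfap20, 1.69 for Cfap97, 1.48 for Cfap36, 1.02 for Cfap298 and 0.95 for Tppp3. In each of the 6 comparisons the two-sided exact permutation test gave p = 0.0286, which is the smallest value that 4 against 4 libraries can give. The ratios share 1 denominator and are not independent of each other. Foxj1 itself fell by 2.07 on the log2 scale, while the 6 genes had log2 fold changes of -1.15 to 0.32. Higher ratios in QZ1-hi thus follow from values already given, and these p-values add no separate support.

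Per kilobase of merged exon (GENCODE M21), Tppp3 had the highest level of the axoneme genes in QZ1-lo, at 69.2 ± 24.8 CPM per kilobase (SD, n = 4). Rsph1 followed at 24.4 ± 7.63, Cfap298 at 20.0 ± 6.25, Cfap53 at 17.7 ± 5.89, Drc1 at 16.2 ± 6.41 and Cfap36 at 15.7 ± 1.10. From Rsph1 to Cfap36 each neighbour lay within the spread of the next. In QZ1-hi the order was Tppp3 at 31.2 ± 11.2, Cfap36 at 10.2 ± 0.87, Cfap298 at 9.60 ± 3.59 and Rsph1 at 6.13 ± 3.60 CPM per kilobase. Cfap36 thus moved from the sixth place to the second.

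**Figure D3:**
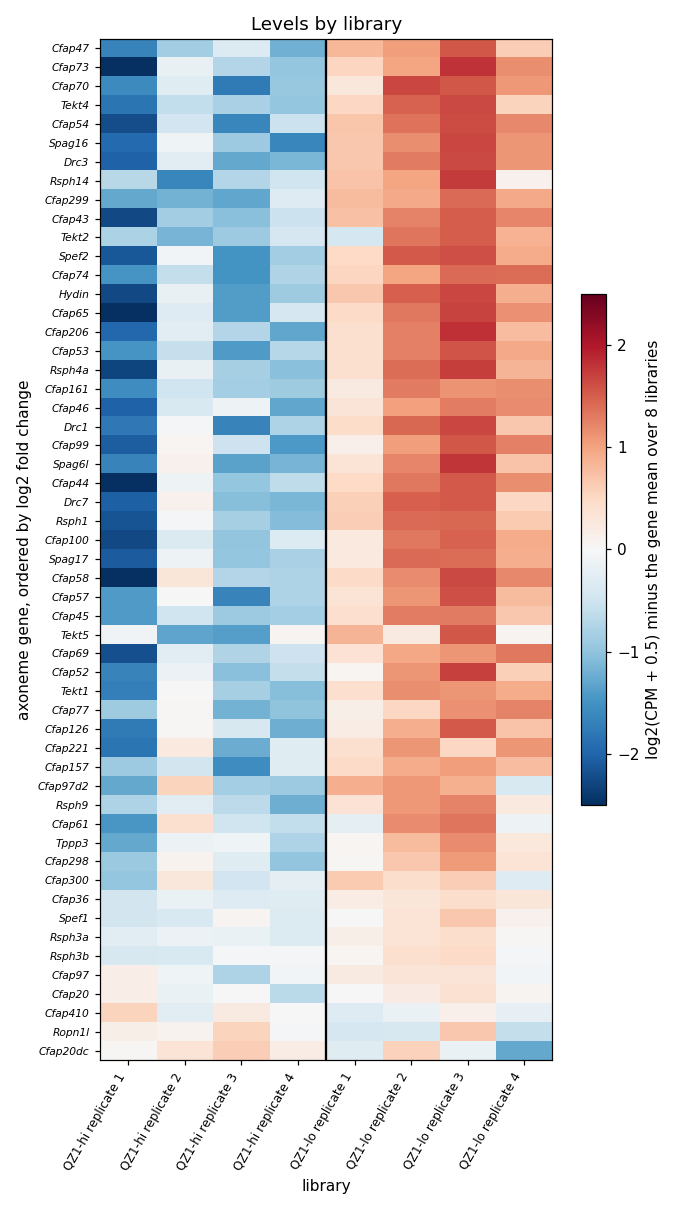
Level of each of the 54 tested axoneme genes (rows, ordered by log2 fold change) in each library (columns), as log2(CPM + 0.5) minus the gene's mean over the 8 libraries, with blue below and red above it. Most rows are blue in the 4 QZ1-hi columns and red in the 4 QZ1-lo columns, and QZ1-hi replicate 1 is the darkest blue while QZ1-lo replicate 3 is the darkest red.

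Axoneme genes also moved together among libraries of the same group. Of the 48 tested members not known from many cell types, 36 were lowest in QZ1-hi replicate 1 within QZ1-hi and 35 were highest in QZ1-hi replicate 2. Within QZ1-lo, 37 of the 48 were lowest in replicate 1 and 38 were highest in replicate 3. Over all genes tested, QZ1-hi replicate 1 was the lowest of its group in 23.0% and QZ1-hi replicate 2 the highest in 22.5%, and QZ1-lo replicate 1 was the lowest in 21.9% and QZ1-lo replicate 3 the highest in 34.3%. The sum over the 58 members was 270, 632, 431 and 445 CPM in QZ1-hi replicates 1 to 4 and 960, 1604, 1925 and 1258 CPM in QZ1-lo replicates 1 to 4. Even the lowest QZ1-lo library had a larger sum than the highest QZ1-hi library. Of the 48, 40 lay within 0.5 of their median log2 fold change. Over all 15583 genes tested, 9803 lay within 0.5 of the median of those genes. With 1 library left out at a time, 35 to 43 axoneme genes were called lower, the fewest without QZ1-hi replicate 4.

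The other parts of the axoneme machinery were looked at through a list of 30 further genes, of which 28 were in the table and tested. Of these, 22 fell and 0 rose, with a median log2 fold change of -2.10. Dnah5, the motor of the outer dynein arm, was at 13.6, 58.9, 28.5 and 41.2 CPM in QZ1-hi and at 117, 193, 189 and 160 CPM in QZ1-lo (log2 fold change -2.21, SE 0.36, edgeR adjusted p = 0.0017). Its groups did not overlap. Dnah9, a motor beside it, fell by 2.40 on the log2 scale (edgeR adjusted p = 8.0e-04), and Gas8, a subunit of the nexin-dynein regulatory complex that is present in many cells, by 0.94 (edgeR adjusted p = 0.0058). Ccdc65 and Efcab2, also subunits of that complex, did not pass the test, with log2 fold changes of -1.38 for Ccdc65 (SE 0.48, edgeR adjusted p = 0.070) and -0.38 for Efcab2 (SE 0.27, edgeR adjusted p = 0.40), and their groups overlapped. Dnajb13, a radial spoke protein, had a value of -0.11 with an SE of 0.38.
Among the regulators of multiciliated cells, 8 of 9 were tested and 5 fell: Foxj1, Trp73 (-2.56), Myb (-2.24), Rfx3 (-1.27) and Rfx2 (-1.07). Mcidas, Deup1 and Ccno did not pass the test. Mcidas, an early regulator of the multiciliated fate, was at 0 to 0.543 CPM in QZ1-hi and at 0.778 to 1.41 CPM in QZ1-lo (edgeR adjusted p = 0.095).

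Marker lists of the cells of the lung fell, rose or stayed without calls. All 8 ciliated cell markers fell (median log2 fold change -2.12), with a summed level of 33.7 to 101 CPM in QZ1-hi and 183 to 390 CPM in QZ1-lo. All 5 club cell markers fell as well (median -1.89), at a summed 333 to 1003 CPM in QZ1-hi and 1470 to 4080 CPM in QZ1-lo. Their sum was highest in QZ1-hi replicate 2 and in QZ1-lo replicate 2, and these numbers do not tie libraries across groups. The axoneme sum was also highest in replicate 2 within QZ1-hi, but in replicate 3 within QZ1-lo. All 4 pan-epithelial markers fell (median -1.40). Their sum in QZ1-hi, 683, 608, 478 and 417 CPM in replicates 1 to 4, was highest in replicate 1, where the axoneme sum was lowest. Within QZ1-lo both sums were highest in replicate 3, at 1640 CPM for the pan-epithelial markers. EpCAM itself was one of the stained proteins, and Epcam RNA fell by 1.17 on the log2 scale (edgeR adjusted p = 0.0016).
Of the alveolar type 1 markers 4 fell and 1 rose, and of the 7 alveolar type 2 markers 1 fell, 1 rose and 5 did not pass the test (median 0.33). All 6 endothelial markers rose (median 3.39), as did 5 of 6 fibroblast markers, 2 of 4 pericyte markers and all 3 mesothelial markers. Both tested basal cell markers and all 5 leukocyte markers failed to pass the test. The germ cell markers, looked at because many axoneme genes also serve sperm, were at 0 in all libraries but 2, with a highest sum of 0.409 CPM, and none was tested. The part of these cell types in the difference of the axoneme genes was not tested.

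**Figure D4:**
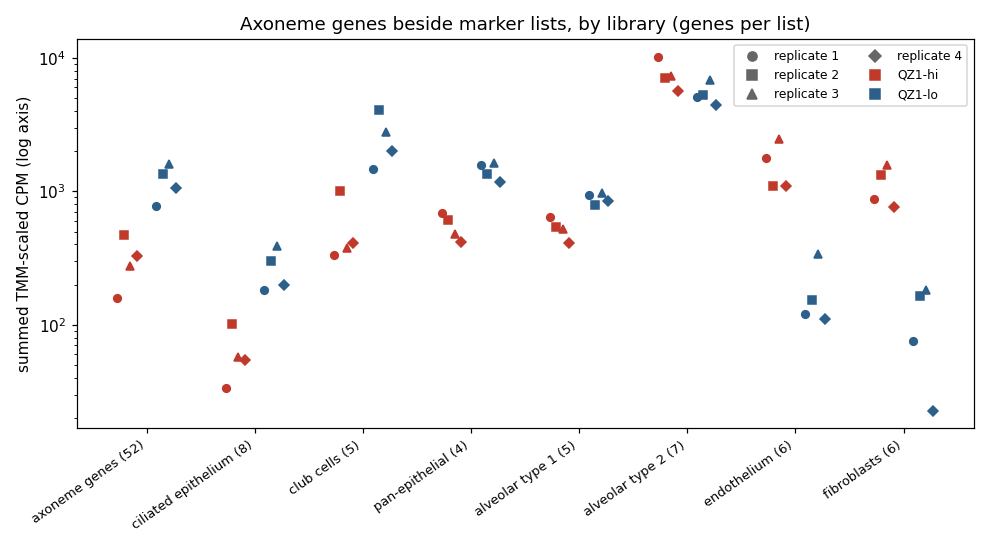
Summed TMM-scaled CPM (y axis, log scale) of the 52 axoneme genes not known from many cell types and of 7 marker lists, with 1 symbol per library, red for QZ1-hi and blue for QZ1-lo. Axoneme genes, ciliated, club, pan-epithelial and alveolar type 1 sums are lower in every QZ1-hi library, and endothelial and fibroblast sums are higher in every QZ1-hi library.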

How the data were processed

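The deposited values are raw counts per gene from sorted mouse lung cells. Per the study's methods, the authors used a strand-keeping SMARTer kit for total RNA and counted reads with Rsubread, and the labels name build mm10. The aligner, annotation and strand setting are not given in the sources used here. Of 27179 Entrez identifiers, 25275 were given a RefSeq symbol, 18 a GENCODE symbol and 1886 none. The test was run with edgeR 4.0.16 under R 4.3.3 (TMM factors 0.660 to 1.35, filterByExpr with minimum count 10 and minimum total 15, quasi-likelihood test, no covariates, Benjamini-Hochberg adjustment, threshold 0.05). The SE of a log2 fold change is its absolute value over the root of F. Alternatives were DESeq2 1.42.0, limma 3.58.1, other scalings, other filters and each library left out. Ratios were compared by exact permutation tests over all 70 assignments. The procedure was tested on simulated data. Floors cover counting error only.

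The axoneme genes, the marker lists and the rules were chosen with earlier results of these data known. Values in every library were given for the 12 members with the highest mean CPM, the 8 called members with the smallest p in each direction, any called against the median's sign, those known from many cell types, and Foxj1. Dnah5 and Rsph3a were given likewise, chosen after their values were seen. Gene coordinates and promoters are from RefSeq (GRCm38.p6), and exon overlaps and lengths from GENCODE M21. No protein sequences were used.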

Additional observations from a re-analysis of the deposited data

Results flagged for a closer look

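Within each group of 4 libraries, the highest or lowest value of a member was compared with the others by Dixon's ratio. Of 112 groups looked at, 4 held a library that stood apart, and chance alone gives about 1 in 20. Cfap299 was at 2.62 CPM in QZ1-hi replicate 4 and at 1.10 to 1.23 CPM in the other QZ1-hi libraries. Cfap97d2 was at 2.03 CPM in QZ1-hi replicate 2 and at 0.212 to 0.463 CPM in the others. Ropn1l was at 2.10 CPM in QZ1-lo replicate 3 and at 0.573 to 0.732 CPM in the others. Spag6 was at 0.060 CPM in QZ1-lo replicate 1, below the floor of 3 counts, and at 0 in the others.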

How the results depend on the processing

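Over 15 alternative settings the number of axoneme genes called lower ran from 35 to 48 and the number called higher was 0 in each. Leaving out 1 library gave 35 to 43 lower calls among them, beside 938 to 1201 lower calls over all genes tested. All 42 called genes had a negative log2 fold change in every setting that tested them, and 34 of them kept the call in every such setting. The 8 that lost it somewhere were Rsph3a (9 settings), Cfap58 (6), Cfap73 (4), Cfap298 (4), Tppp3 (3), Cfap46, Cfap99 and Tekt2 (1 each), and 6 genes not called gained a call somewhere. Single libraries decided several of these calls in edgeR. Without QZ1-hi replicate 4 the adjusted p was 0.054 for Cfap46 and 0.054 for Cfap99. For Cfap73 it was 0.051 to 0.073 without QZ1-hi replicate 3 or 4 or QZ1-lo replicate 2 or 3, and for Cfap58 0.073 to 0.102 without any of these or QZ1-lo replicate 4. For Rsph3a it was 0.054 to 0.110 without any library but QZ1-lo replicate 4. Without QZ1-hi replicate 2, Cfap221 (adjusted p = 0.024) and Cfap97d2 (0.023) were called lower, and without QZ1-hi replicate 3 Spef1 was (0.045). Scaling by library size only gave 48 lower calls and turned the sign of 2 uncalled genes, to -0.0904 for Cfap410 and -0.0440 for Ropn1l, and the cause was not tested. At least 10 counts in every library left 46 members to test, of which 38 were called lower, beside 1190 of all 13185 genes left. No paired analysis was possible because the replicate numbers used here only name libraries in accession order, and neither the labels nor the column names tie libraries to a mouse. Depth limits the rarest members: Spag6, Tekt3, Cfap97d1 and Rsph6a were not tested, and a read count of 0 sets only an upper limit of 3 counts.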
